A study of Mus musculus with 8 samples.

Results

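The 10 genes described here are Yap1 and Wwtr1, which encode the coactivators YAP and TAZ, Tead1 to Tead4, which encode the TEAD transcription factors, and the target genes Cyr61, Ctgf, Ankrd1 and Amotl2. They were taken by symbol from the deposited gene table, in which 10 of 10 were found among 36048 genes. Cyr61 and Ctgf, the older symbols in the deposited files, are now Ccn1 and Ccn2. The Hippo pathway is a kinase cascade: the kinases MST1 and MST2 (Stk4 and Stk3) with their partner Sav1 activate LATS1 and LATS2 with their MOB1 partners, and LATS phosphorylates YAP and TAZ, which keeps them out of the nucleus. Free of that mark, YAP and TAZ enter the nucleus and switch on genes through the TEAD proteins, which bind DNA. In muscle, YAP is known for promoting satellite cell proliferation, TEAD factors for binding the MCAT element of muscle gene promoters, and YAP and TAZ in endothelium for their part in vessel sprouting and in the response to flow. RNA levels, which were measured here, do not show where the YAP and TAZ proteins lie or whether they are phosphorylated.

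RNA was sequenced from 3 populations of mouse skeletal muscle. They were satellite cells (SC, n = 2, replicates 1 and 3), the stem cells beneath the basal lamina of fibres, then endothelial cells (EC, n = 3), which form the inner lining of vessels, and whole contractile fibres (SMF, n = 3). Flow cytometry supplied the SC and EC, about 100000 cells a library from hindlimb muscles, whereas each SMF library held 100 undamaged fibres chosen by hand from the extensor digitorum longus after 3 h of rest. The labels name no treatment for any of the 3 populations, and they give no strain, age, sex, genotype or sort marker. Isolation method and muscle changed together with the population, so they cannot be told apart from it. The labels do not tie replicates to separate animals, so the spread behind each p-value is that of these libraries and may be technical. One unnamed library missed the RNA integrity that the others reached, per the labels' protocols.

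Levels are given as deposited gene FPKM (a fragment number divided by transcript length and by the size of the library) and, where genes are set beside each other, as the deposited TPM (a length-corrected share of all transcripts in a library). One fragment on a transcript of 1 kb was worth 0.272 to 0.360 FPKM in SC and EC libraries and 0.172 to 0.190 FPKM in SMF libraries. The population markers lay where the labels put them. Summed over 7 genes each, satellite cell markers gave 434 to 517 FPKM in SC, against at most 23.6 FPKM in EC and 8.42 FPKM in SMF, and Pax7, Calcr and Fgfr4 were at 0 in every EC library. Endothelial markers gave 17.1 to 23.4 FPKM in SC, 1009 to 1070 FPKM in EC and 2.81 to 3.38 FPKM in SMF, and fibre markers 161 to 255 FPKM in SC, 10.7 to 18.5 FPKM in EC and 30476 to 32949 FPKM in SMF. Markers of other cells were also present. Mural cell markers summed to 204 to 256 FPKM in SC, 295 to 700 FPKM in EC and 6.29 to 9.07 FPKM in SMF. In SC, Acta2 and Tagln made up most of that sum, with means of 164.5 and 49.5 FPKM, while Rgs5, Pdgfrb, Kcnj8 and Myh11 averaged 8.25, 1.04, 1.10 and 3.92 FPKM in SC and 339, 21.7, 17.0 and 39.5 FPKM in EC. Fibro-adipogenic markers summed to 260 to 261 FPKM in SC, 19.1 to 91.4 FPKM in EC and 25.4 to 46.0 FPKM in SMF, and in SC most of it came from Col3a1 and Dpt, at 111 and 99.4 FPKM. Immune markers summed to 26.8 to 32.7 FPKM in SC, 10.3 to 77.8 FPKM in EC and 1.01 to 3.41 FPKM in SMF. The part of these other cells in the values below was not tested, and in such bulk libraries fewer cells of a type and less RNA per cell cannot be told apart.

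TEAD proteins bind the core letters GGAATG, which read CATTCC on the opposite strand, and the bases before the starts of the coactivator and target genes are shown because they carry these letters in 5 of the genes. RefSeq promoter entries (GRCm38.p6, the assembly that mm10 names) were matched for 7 of the 10 genes, and the 250 bases before each listed start were searched on both strands. A match was present in 6 of the 7. For comparison, 14.4% of 27025 genes in the table held a match in at least 1 of their windows, and of 32851 single windows 12.6% held at least 1 match and 0.992% held 2 or more. A match is only a run of letters in this window and not evidence of binding. In the lines that follow each sequence runs 5′ to 3′ along its gene's strand, with the matched letters in capitals.
Cyr61 (Ccn1), chr3:145649986-145650235, minus strand: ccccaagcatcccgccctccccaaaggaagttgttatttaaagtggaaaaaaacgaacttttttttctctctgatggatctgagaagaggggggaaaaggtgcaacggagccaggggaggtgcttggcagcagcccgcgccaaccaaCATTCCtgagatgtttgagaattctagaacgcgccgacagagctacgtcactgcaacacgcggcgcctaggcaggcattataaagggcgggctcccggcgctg
Ankrd1, chr19:36119845-36120094, minus strand: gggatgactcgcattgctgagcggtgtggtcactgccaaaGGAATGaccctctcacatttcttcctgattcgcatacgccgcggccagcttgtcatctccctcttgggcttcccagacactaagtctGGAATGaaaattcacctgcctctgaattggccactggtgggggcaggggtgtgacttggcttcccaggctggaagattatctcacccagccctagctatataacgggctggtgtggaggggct
Amotl2, chr9:102717727-102717756, plus strand: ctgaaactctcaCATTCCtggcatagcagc
Yap1, chr9:8004720-8004749, minus strand: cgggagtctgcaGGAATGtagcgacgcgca
Wwtr1, chr3:57576029-57576058, minus strand: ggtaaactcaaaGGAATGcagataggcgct

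Among these windows, Ankrd1 held 2 matches, which begin 210 and 123 bases before the annotated start. The match of Cyr61 begins 103 bases before its start, that of Yap1 141 bases and that of Amotl2 65 bases before the start listed for it. That Amotl2 start lies inside the gene's span, which begins at 102717091. The Amotl2 match also lies downstream of 102717668, where the listed transcript ENSMUST00000035121 begins. Wwtr1 has 2 listed starts, and its single match lies 136 bases before one and 170 bases before the other. Tead3 has 3 listed starts, whose windows held 1, 2 and 0 matches, and the window of Tead2 held none. Promoters of Tead1, Tead4 and Ctgf were not analysed here. Cyr61 and Ankrd1 both carry the core letters. The order of populations in their RNA, given below, was not the same, and a relation of RNA levels to these letters was not tested.

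RNA of the coactivators was present in all 3 populations, and the balance between them differed. Yap1 (chr9:7931999-8004638, GRCm38.p6) overlapped between SC and EC libraries and was lower in SMF on the FPKM scale, while Wwtr1 (chr3:57455644-57575910) was highest in EC, intermediate in SC and lowest in SMF. Yap1 had 6.93 and 6.46 FPKM in the SC libraries, 6.62, 7.01 and 6.91 FPKM in the EC libraries and 3.02, 2.39 and 2.03 FPKM in the SMF libraries. SC and EC values interleaved, and every SMF value lay below them. Wwtr1 had 40.6 and 28.5 FPKM in SC, 53.8, 55.2 and 57.1 FPKM in EC and 2.82, 2.84 and 2.91 FPKM in SMF. No library of one population overlapped another, and the SC libraries were farther apart from each other than those of EC or SMF.

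**Figure D1:**
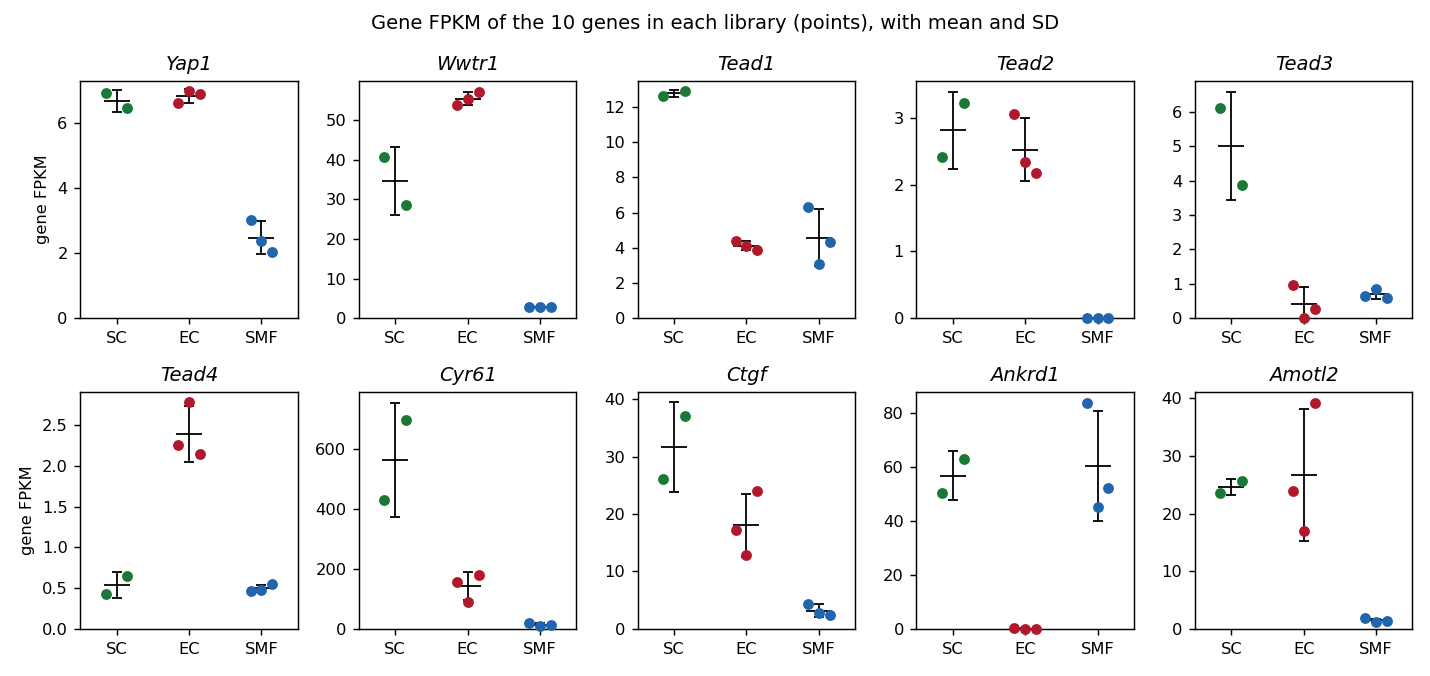
Gene FPKM (y axis, linear, from 0, its own scale for each gene) of the 10 genes in the 2 SC, 3 EC and 3 SMF libraries, with points for libraries and bars for the mean and SD. Wwtr1 and Tead4 were highest in EC, Tead1, Tead3 and Cyr61 in SC, and Ankrd1 was at or near 0 in EC only, with 0.351 FPKM as the highest of the EC values.

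Differences were tested with limma on log2(FPKM + 1), and adjusted p-values are Benjamini-Hochberg values over 16700 genes. Between SC and EC, Yap1 differed by -0.028 log2 units (95% confidence interval -0.39 to 0.34, limma adjusted p = 0.912), so a difference beyond that interval was not seen and a smaller one could not be told from 0. Wwtr1 was lower in SC than in EC by -0.68 log2 units (SE 0.17, limma adjusted p = 0.0163), which was called in 14 of 17 alternative settings but not with the TPM table, with only SC and EC fitted, or without SC replicate 3. Over the 17 settings the limma adjusted p ran between 0.00413 and 0.101, the highest without SC replicate 3. Against fibres, Wwtr1 was 12.1-fold higher in SC and 19.4-fold higher in EC (3.18 and 3.87 log2 units, limma adjusted p = 5.34e-06 and 5.21e-07), in all 17 settings. Yap1 was 2.70-fold higher in SC and 2.76-fold higher in EC than in SMF, with differences of 1.15 and 1.18 log2 units (limma adjusted p = 0.000395 and 0.000162). The Yap1 calls were kept in 14 of 17 settings for SC and 16 of 17 for EC. Their highest limma adjusted p was 0.298 for SC and 0.352 for EC, both with upper-quartile scaling. Median-of-ratios scaling also lost the Yap1 call for SC.

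The comparisons with fibres depended on how libraries were scaled. The median difference over all tested genes was 0.11 log2 units for SC minus EC, 0.93 for SC minus SMF and 0.85 for EC minus SMF. Relative to these medians, Yap1 lay 0.23 log2 units above for SC minus SMF and 0.33 above for EC minus SMF. Upper-quartile scaling moved the medians against fibres to 0.0019 and -0.13, and Yap1 then differed by -0.28 log2 units for SC minus SMF and -0.21 for EC minus SMF, neither called. The difference of Wwtr1 against fibres stayed called under every scaling that was run, at 1.64 log2 units or more for SC and 2.36 or more for EC.

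Within a library, the ratio of Yap1 to Wwtr1 is free of scaling. On gene FPKM, log2 of Yap1 over Wwtr1 was -2.35 ± 0.29 in SC (SD, n = 2), -3.02 ± 0.034 in EC (SD, n = 3) and -0.22 ± 0.31 in SMF (SD, n = 3). On TPM it was -0.999 ± 0.038 in SC, -1.73 ± 0.093 in EC and 0.94 ± 0.29 in SMF (SD, n = 2, 3 and 3). Wwtr1 RNA thus exceeded Yap1 RNA in SC and EC on both scales, whereas in fibres the sign of the log2 ratio differed between scales. The order of the populations was the same on both scales, and no library overlapped another population. Exact two-sided permutation tests of the log2 ratio gave p = 0.2 for SC minus EC, 0.2 for SC minus SMF and 0.1 for EC minus SMF, each the smallest that the number of libraries allows. For both genes gene FPKM was in a constant ratio to the length-weighted sum of listed transcripts (coefficient of variation up to 1%). Yap1 has 10 listed transcripts of which 7 were above 0 in some library, while 1 transcript carried nearly all of Wwtr1.

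RNA of the 4 TEAD genes was present in different proportions. Tead1 led in every library, Tead3 was next in SC, Tead4 and Tead2 were next in EC, and Tead2 was listed at 0 in every fibre library. Tead1 (chr7:112679356-112906784) had 12.6 and 12.9 FPKM in SC, 4.38, 4.11 and 3.88 FPKM in EC and 6.32, 3.10 and 4.31 FPKM in SMF. Both SC libraries lay above all others, and the fibre values straddled those of EC. On the TPM scale Tead1 had 19.3 and 29.5 in SC, 3.28, 5.37 and 3.58 in EC and 14.6, 12.8 and 13.1 in SMF. There the 3 populations did not overlap, and fibres lay between SC and EC.

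Tead1 was higher in SC than in EC by 1.43 log2 units of FPKM (SE 0.23, limma adjusted p = 0.00225), in 17 of 17 settings. Against fibres it was higher in SC by 1.35 log2 units (limma adjusted p = 0.00138), a call kept in 13 of 17 settings. Among those that lost it were upper-quartile scaling, at -0.22 log2 units, and the sum of the listed transcripts, at -0.33. Median-of-ratios scaling lost it as well. Over the 17 settings the limma adjusted p ran between 0.000505 and 0.514. For EC minus SMF the FPKM difference was -0.083 log2 units (95% confidence interval -0.57 to 0.40, limma adjusted p = 0.741). In 5 of 17 settings it was called lower in EC, among them the TPM table at -1.53 log2 units and the sum of listed transcripts at -1.56, and the limma adjusted p over the 17 ran between 0.000173 and 0.883.

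That dependence has a counterpart in the transcript table. The long transcript ENSMUST00000059768 (9964 bases, of which 8611 are untranslated) had 13.0 and 12.8 FPKM in SC, 4.93, 4.50 and 4.34 FPKM in EC and 5.03, 0 and 2.09 FPKM in SMF. The short transcript ENSMUST00000164363 (1495 bases, mm10 chr7:112742045-112898660) was at 0 in every SC and EC library and had 12.8, 9.89 and 16.6 FPKM in SMF. Both carry a coding sequence of 1353 bases, and they differ in their first exon's position and in 142 against 8611 untranslated bases. In fibres the short form therefore made up 67.9%, 56.5% and 87.5% of the listed Tead1 FPKM. Another transcript, ENSMUST00000084705 (2543 bases), was above 0 only in SMF replicate 2, at 7.62 FPKM. The split between transcripts is an estimate by the authors' assembler, transcripts that are not listed do not enter it, and it was not tested.

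**Figure D2:**
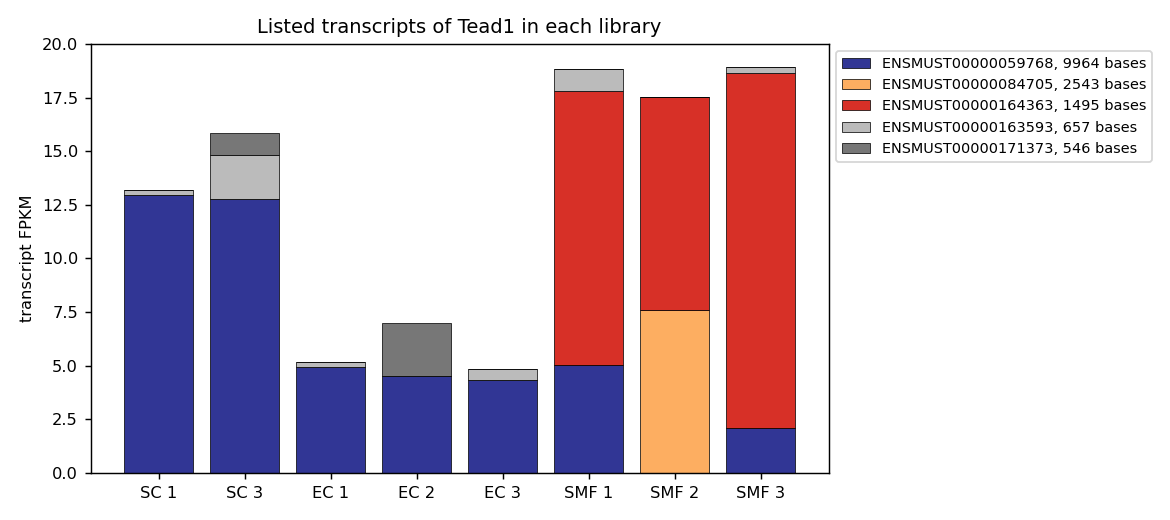
FPKM of the 5 listed Tead1 transcripts above 0 (y axis, linear, stacked) in each SC, EC and SMF library. The long form fills most of each SC and EC bar, while the short form of 1495 bases appears only in the SMF bars, at 9.89 to 16.6 FPKM.

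Tead2 (chr7:45215792-45233468) had 2.41 and 3.21 FPKM in SC, 3.06, 2.33 and 2.18 FPKM in EC and 0 in each SMF library. SC and EC overlapped and differed by 0.11 log2 units (95% confidence interval -0.29 to 0.52, limma adjusted p = 0.657). Both were called above SMF (limma adjusted p = 4.93e-05 for SC and 2.70e-05 for EC), with no fold given because the fibre value was listed at 0. The reads behind the listed Tead2 transcripts were few, equal to between 22.1 and 33.1 fragments of 100 aligned bases in a SC or EC library.

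Tead3 (chr17:28331671-28350805) was higher in SC than in both other populations. It had 6.11 and 3.88 FPKM in SC, 0.975, 0 and 0.276 FPKM in EC and 0.639, 0.863 and 0.597 FPKM in SMF. It was higher in SC than in EC by 2.11 log2 units and than in SMF by 1.80 log2 units (limma adjusted p = 0.00120 and 0.00121). The call against EC held in all 14 settings that kept the gene, and that against SMF in 13 of 14, with a limma adjusted p of 0.0682 under upper-quartile scaling in a range that began at 0.000255. Because Tead3 passed the filter only through its level in SC, it had to differ there, which limits what both calls show. Tead3 was not tested when either SC library was left out, so these settings do not check the calls against either of them. EC and SMF overlapped, at -0.32 log2 units (95% confidence interval -0.95 to 0.31).

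Tead4 (chr6:128227143-128300813) had the opposite distribution between the sorted cells. It had 0.427 and 0.648 FPKM in SC, 2.25, 2.79 and 2.14 FPKM in EC and 0.469, 0.473 and 0.549 FPKM in SMF. EC libraries stood above all others, and SC and SMF overlapped. Tead4 was lower in SC than in EC by -1.14 log2 units (SE 0.16, limma adjusted p = 0.00114) and higher in EC than in SMF by 1.18 log2 units (limma adjusted p = 0.000195), the second not called under upper-quartile scaling (0.30 log2 units, limma adjusted p = 0.129, against a lowest of 0.000254 over the settings). SC minus SMF was 0.035 log2 units (95% confidence interval -0.34 to 0.41) and was called lower, at -0.63, under upper-quartile scaling alone (limma adjusted p = 0.0157, with values up to 0.979 in the other settings). Tead3 entered the test only through its level in SC and Tead4 only through its level in EC, so each had to differ there. Listed Tead3 transcripts held only 8.66 and 7.08 fragments of 100 aligned bases in SC, and the single listed Tead4 transcript was at 0 in every library, so the gene values of both rest partly or wholly on transcripts not analysed here, and the reads behind them are unknown.

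As shares of the summed TEAD TPM of a library, Tead1 made up 74.4 ± 6.11% in SC, 41.1 ± 2.14% in EC and 92.1 ± 2.42% in SMF (SD, n = 2, 3 and 3). Tead4 made up 1.43 ± 0.33% in SC, 32.9 ± 3.47% in EC and 3.33 ± 1.24% in SMF. Tead2 held 7.72 ± 0.69% in SC and 21.9 ± 2.30% in EC, and Tead3 held 16.4 ± 5.75% in SC, 4.11 ± 4.50% in EC and 4.61 ± 1.21% in SMF. The 3 genes other than Tead1 together thus took their greatest part in EC. On gene FPKM the Tead1 shares were 60.5 ± 2.78% in SC, 43.8 ± 2.42% in EC and 78.0 ± 7.64% in SMF, in the same order. The sum of the 4 genes was 32.5 TPM in SC, 9.87 TPM in EC and 14.6 TPM in SMF, but 21.1, 9.45 and 5.77 FPKM in the same populations, so EC and SMF changed places between the scales.

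**Figure D3:**
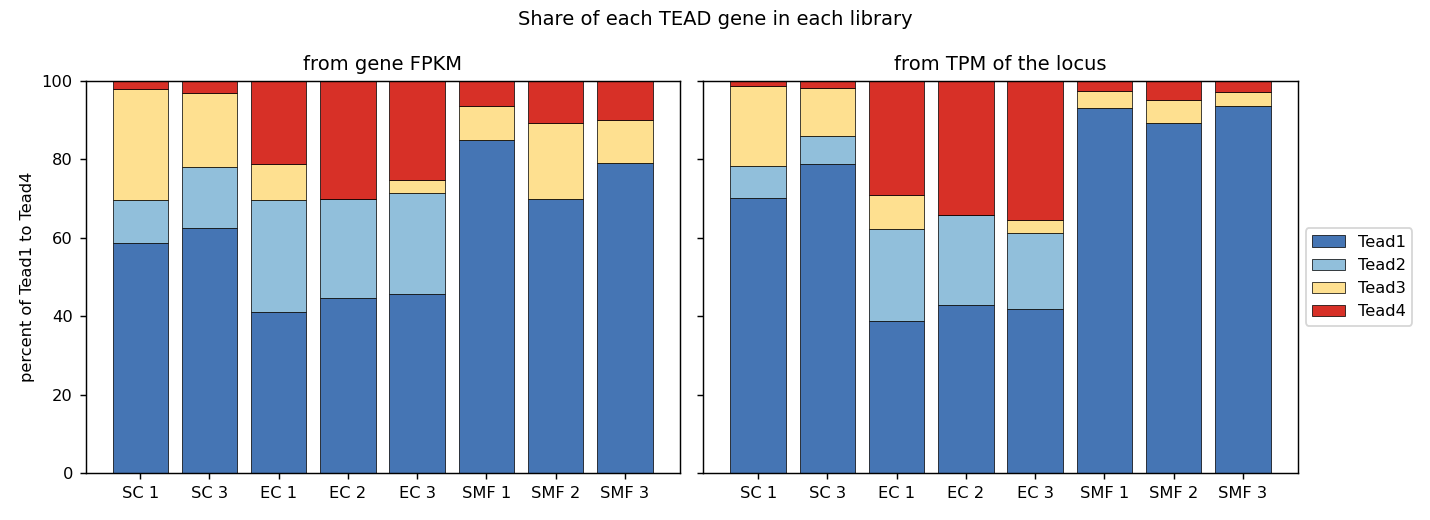
Share of Tead1 to Tead4 in the summed TEAD level of each SC, EC and SMF library, in percent (y axis), from gene FPKM on the left and TPM on the right. Tead1 is the greatest share in every bar, Tead4 is widest in the EC bars (29.0% to 35.5% on TPM in EC, 1.19% and 1.66% in SC), and Tead2 is missing from the SMF bars.

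The target genes did not move as one. Cyr61 and Ctgf, which encode secreted matricellular proteins, were highest in SC, Amotl2, an angiomotin family member that binds YAP and restrains it, overlapped between SC and EC, and Ankrd1, a stretch-responsive protein of the sarcomere and nucleus, was high in SC and in SMF and nearly missing from EC. Against fibres, Cyr61, Ctgf and Amotl2 were higher in both sorted populations in 17 of 17 settings.

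Cyr61 (chr3:145646971-145649985) was the most abundant of the 10 genes in SC and in EC on the TPM scale, at a mean of 428 and 100 TPM, while in SMF, at 9.09 TPM, it stood below Ankrd1 and Tead1. It had 429 and 698 FPKM in SC, 155, 89.6 and 181 FPKM in EC and 18.2, 8.71 and 13.7 FPKM in SMF. The 3 populations did not overlap. SC exceeded EC 3.98-fold (2.00 log2 units, SE 0.40, limma adjusted p = 0.00615), and SC and EC exceeded SMF 41.6-fold and 10.5-fold (5.29 and 3.29 log2 units, limma adjusted p = 2.22e-05 and 0.000103). The call between SC and EC was lost without SC replicate 3, where the difference was 1.64 log2 units and the limma adjusted p 0.0521, the highest of a range that began at 0.00418.

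Ctgf (chr10:24595442-24598683) had 26.1 and 37.1 FPKM in SC, 17.2, 12.9 and 24.0 FPKM in EC and 4.42, 2.76 and 2.38 FPKM in SMF. Its order was that of Cyr61 with smaller steps. SC values did not overlap those of EC, yet the difference of 0.80 log2 units (SE 0.31, 95% confidence interval 0.080 to 1.52) was not called after adjustment (limma adjusted p = 0.0795). It was called in 1 of 17 settings, without EC replicate 3, and the limma adjusted p over the settings ran between 0.0386 and 0.334. Ctgf exceeded its SMF level 9.92-fold in SC and 5.66-fold in EC (limma adjusted p = 9.56e-05 and 0.000234).

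Amotl2 (chr9:102717091-102733418) had 23.6 and 25.6 FPKM in SC, 23.9, 16.9 and 39.2 FPKM in EC and 1.83, 1.25 and 1.30 FPKM in SMF. The EC libraries spanned the SC values on both sides, and the difference was -0.032 log2 units with a wide 95% confidence interval of -0.76 to 0.70. SC and EC exceeded SMF 16.8-fold and 18.3-fold (3.39 and 3.42 log2 units, limma adjusted p = 5.37e-05 and 2.01e-05). The deposited transcript estimates split Amotl2 differently between the SC libraries and between EC libraries. In every SMF library they assigned it to ENSMUST00000142011 alone, which is annotated as a target of nonsense-mediated decay. The protein-coding transcript ENSMUST00000035121, of 10 exons, was above 0 in SC replicate 1 only. Elsewhere other forms carried the signal, among them shorter protein-coding ones and ones annotated as retained introns or as targets of nonsense-mediated decay.

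Ankrd1 (chr19:36111965-36119844) had 50.3 and 63.1 FPKM in SC, 0.351, 0 and 0 FPKM in EC and 83.7, 45.3 and 52.3 FPKM in SMF. The SC values lay inside the range of the fibres, and the single EC value above 0 corresponds to about 1.97 fragments of 100 aligned bases. SC exceeded EC by 5.70 log2 units of FPKM + 1 and EC lay below SMF by -5.75 (limma adjusted p = 5.23e-06 and 7.86e-07), both called in 17 of 17 settings. The mean in SC was 93.8% of that in SMF. Fibre markers in SC summed to 0.658% of their level in SMF, and the part of fibre RNA in the SC value was not tested. SC minus SMF was -0.049 log2 units (95% confidence interval -0.71 to 0.61), and it was called lower in SC in 3 of 17 settings, at -1.13 with median-of-ratios scaling, -1.81 with upper-quartile scaling and -1.09 with scaling without the most abundant genes. Their limma adjusted p began at 0.000942, and it reached 0.960 over all the settings.

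**Figure D4:**
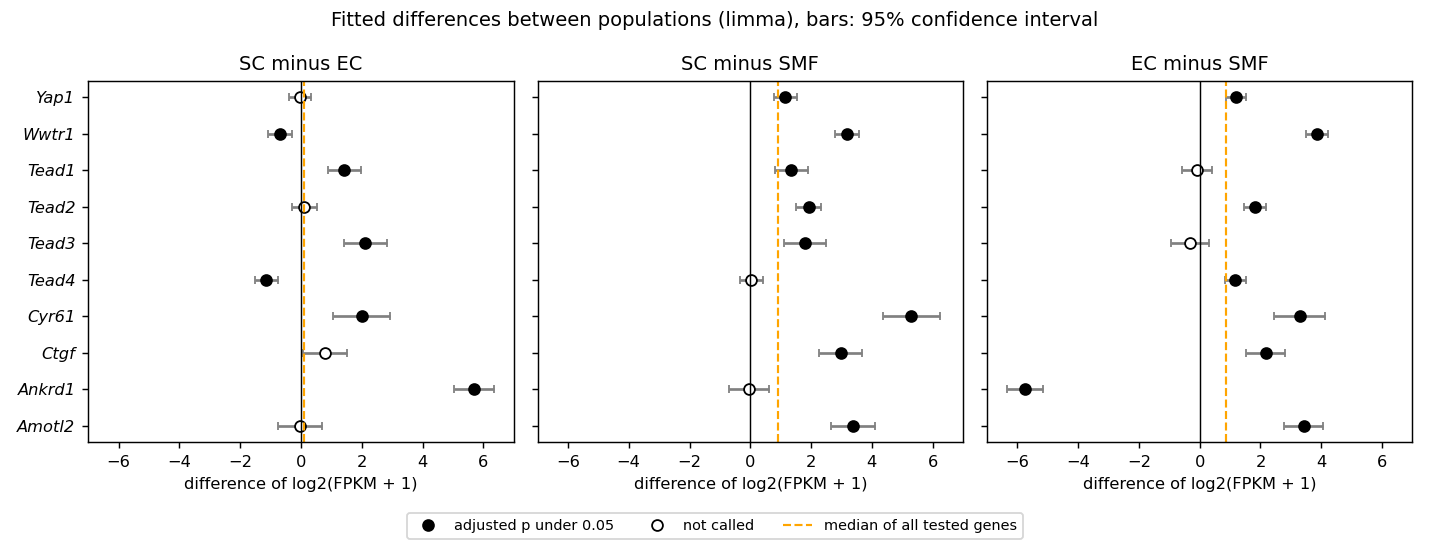
Differences of log2(FPKM + 1) with 95% confidence intervals (x axis) for the 10 genes in SC minus EC, SC minus SMF and EC minus SMF. Filled points were called by limma at an adjusted p under 0.05, the dashed line is the median of all tested genes (0.11, 0.93 and 0.85), and Ankrd1 stands out at 5.70, -0.049 and -5.75.

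Counted together, 4 of the 10 genes were called higher in SC against EC (Tead1, Tead3, Cyr61 and Ankrd1), 2 were lower (Wwtr1 and Tead4) and 4 were not called, against a background of 37.7% of all tested genes called in either direction. Of all genes, 21.2% were called higher and 16.4% lower. The median difference of the 10 was 0.46 log2 units, beside 0.11 over all genes. Against fibres, 8 of the 10 were higher in SC, with Tead4 and Ankrd1 not called, where 65.1% of all genes were called (56.5% higher and 8.57% lower), and their median was 1.86 log2 units beside 0.93. Upper-quartile scaling gave 5 higher and 2 lower, and median-of-ratios scaling 6 higher and 1 lower. For EC against SMF, 7 were higher, Ankrd1 was lower and Tead1 and Tead3 were not called, where 66.3% of all genes were called (55.5% higher and 10.8% lower). The median of the 10 was 1.50 log2 units beside 0.85, and upper-quartile scaling gave 5 higher and 3 lower. These 3 comparisons share libraries and are therefore not independent. The counts include Tead3 and Tead4, which entered the test only through their levels in SC and in EC respectively, so each had to differ there.

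Early-response genes such as Fos, Jun and Egr1, a class to which Cyr61 is known to belong, were set beside the targets after the values were seen. Their sum over 10 genes was 4372 and 5598 FPKM in SC, 1748, 1335 and 1905 FPKM in EC and 847, 379 and 472 FPKM in SMF, the same order of populations as for Cyr61 and Ctgf. Within populations, SC replicate 3, EC replicate 3 and SMF replicate 1 had the highest early-response sum and also the highest Cyr61, Ctgf and Amotl2. Of the 10 early-response genes, 6 were called higher in SC against EC, 10 in SC against SMF and 9 in EC against SMF, where 21.2%, 56.5% and 55.5% of all tested genes were called higher. The 6 became 4 without either SC library, without EC replicate 1 or 2 or without SMF replicate 3. Upper-quartile scaling gave 7 higher for SC minus SMF, and 3 higher and 1 lower for EC minus SMF, where the median of the list was 0.096 log2 units against 1.77 without that scaling. EC replicate 2 had the lowest Cyr61, Ctgf and Amotl2 of the EC libraries and also their lowest mural (295 FPKM), fibro-adipogenic (19.1 FPKM) and immune (10.3 FPKM) marker sums. Tenocyte (tendon cell) markers, summed over 4 genes, gave 17.1 FPKM in SMF replicate 1 against 1.24 and 2.45 FPKM in SMF replicates 2 and 3. Their sum was 6.41 and 9.63 FPKM in the SC libraries and 3.49, 6.51 and 4.92 FPKM in the EC libraries. The part of the early response or of these other cells in the target genes was not tested.

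TEAD proteins also take the Vestigial-like (VGLL) cofactors in place of YAP and TAZ, and their distribution over the populations differed from gene to gene. Vgll2, a cofactor known from skeletal muscle, had 23.3 and 20.6 FPKM in SC, 0 in each EC library and 21.5, 20.1 and 20.0 FPKM in SMF. It was present in every SC and SMF library and was listed at 0 in every EC library. SC minus EC was 4.52 and EC minus SMF -4.43 log2 units (limma adjusted p = 7.37e-07 and 1.13e-07), while SC minus SMF was 0.090 and not called, but was called at -0.92, -0.96 and -1.62 under the other scalings. Vgll3 had 31.0 and 38.4 FPKM in SC, 0.550, 0 and 0.393 FPKM in EC and 0.531, 0.330 and 0.475 FPKM in SMF, and was higher in SC by 4.78 log2 units than in EC and 4.62 than in SMF (limma adjusted p = 3.26e-06 and 3.11e-06). Vgll3 entered the test only through its level in SC, so it had to differ there, and it was not tested when either SC library was left out. Vgll4, which opposes YAP on TEAD, had a mean of 5.93 FPKM in SC, 7.20 FPKM in EC and 0.746 FPKM in SMF, and was higher in SC and in EC than in SMF (1.98 and 2.23 log2 units, limma adjusted p = 2.92e-05 and 5.48e-06) but not called between SC and EC (-0.25 log2 units, 95% confidence interval -0.62 to 0.13). EC minus SMF of Vgll3 was -0.16 log2 units and not called. Vgll1 did not reach the level needed for the test.

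The kinase core was mostly not called between the sorted populations and was higher in both than in fibres. For SC minus EC, 21.2% of all tested genes were called higher and 16.4% lower. Of the 7 core genes, 1 was higher in SC than in EC (Lats1, 12.1 against 7.21 FPKM, 0.69 log2 units, limma adjusted p = 0.0124), 1 was lower (Sav1, 17.4 against 27.6 FPKM, -0.63 log2 units, limma adjusted p = 0.0218) and 5 were not called, with a median of -0.13 beside 0.11 over all genes. Neither call held without SC replicate 1 (limma adjusted p = 0.0718 and 0.130, highest over the settings 0.190 and 0.130), and median-of-ratios scaling gave 2 lower and left Lats1 uncalled. Against fibres 6 of 7 were higher in SC and 6 of 7 in EC (medians 2.30 and 1.62), with Mob1b not called in either, where 56.5% and 55.5% of all tested genes were called higher, and upper-quartile scaling gave 4 higher and 1 lower for SC and 3 higher and 2 lower for EC. Mob1a, an activator of LATS, had 17.2 FPKM in SC, 18.9 FPKM in EC and 0.693 FPKM in SMF, and Lats2 had 15.5, 19.9 and 1.61 FPKM in the same populations. Sav1 differed from fibres by 0.62 log2 units in SC and 1.25 in EC, and these turned to -1.05 and -0.39 with upper-quartile scaling. SC minus SMF of Sav1 also turned negative with the other scalings, at -0.40 and -0.36, and was not called without SC replicate 3 (0.51 log2 units).

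Upstream regulators of the kinases differed between SC and EC gene by gene. Of 13 listed, 12 were tested, and 2 were higher in SC than in EC, 4 were lower and 6 were not called, with a median of -0.15, while median-of-ratios scaling gave 1 higher and 6 lower. Over all tested genes, 21.2% were called higher and 16.4% lower in SC than in EC, with a median of 0.11. Frmd6, a FERM-domain activator of the pathway, averaged 39.0 FPKM in SC, 3.11 FPKM in EC and 2.55 FPKM in SMF (3.29 log2 units for SC minus EC, limma adjusted p = 5.81e-06), and the kinase Map4k4 averaged 37.2 FPKM in SC, 21.5 FPKM in EC and 0.809 FPKM in SMF. The call of Map4k4 between SC and EC (0.77 log2 units, limma adjusted p = 0.0154) was lost without either SC library. Its limma adjusted p ranged from 0.0128 to 0.174 over the settings. As with median-of-ratios scaling, only 1 upstream gene was called higher in SC than in EC with a pseudocount of 0.1 or with scaling without the most abundant genes. The atypical cadherins Fat4 and Dchs1, a receptor and its ligand, were lower in SC than in EC by -2.55 and -1.18 log2 units (limma adjusted p = 1.50e-05 and 0.000822), with Fat4 at 2.57 FPKM in SC and 19.6 FPKM in EC. The kinase Taok2 and the phosphatase Ptpn14 were lower as well (-1.46 and -1.16 log2 units), Ptpn14 not without either SC library, where the limma adjusted p was 0.0630 and 0.0635. Against fibres, 10 of the 12 were higher in SC and 9 in EC (medians 1.72 and 2.41), beside 56.5% and 55.5% of all tested genes, and upper-quartile scaling gave 7 higher and 3 lower for SC and 7 higher and 4 lower for EC. Amot, the angiomotin that founded the family of Amotl2, was the 1 lower gene in both, at 2.63 FPKM in SC, 2.33 FPKM in EC and 6.65 FPKM in SMF, although with the TPM table it was not called between SC and SMF (limma adjusted p = 0.0625, lowest over the settings 6.37e-05).

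Further genes often listed as YAP and TEAD targets also moved in both directions. For SC minus EC, 21.2% of all tested genes were called higher and 16.4% lower, with a median of 0.11 log2 units. Of the 18 target genes listed, which include Lats2 of the kinase core and Ptpn14 of the upstream regulators, 16 were tested, and 5 were higher in SC than in EC, 6 were lower and 5 were not called, with a median of -0.78 log2 units, and median-of-ratios scaling gave 3 higher and 6 lower. These counts became 3 higher and 3 lower without SC replicate 1 and 3 higher and 5 lower without SC replicate 3, and the median became -0.28 without EC replicate 2. Among the genes called between SC and EC, F3 entered the test only through its level in SC and Fjx1 only through its level in EC. Each therefore had to differ there. Igfbp3, a binding protein of insulin-like growth factors, averaged 4.86 FPKM in SC, 72.5 FPKM in EC and 0.311 FPKM in SMF, and Crim1, a transmembrane binder of growth factors, averaged 5.89, 35.4 and 3.75 FPKM in the same populations. Both were lower in SC than in EC, by -3.64 and -2.42 log2 units (limma adjusted p = 3.00e-05 and 2.82e-05). In the other direction, the stress gene Gadd45a had 67.8 and 28.6 FPKM in SC, 10.1, 4.59 and 12.1 FPKM in EC and 36.0, 24.4 and 34.0 FPKM in SMF. It was higher in SC than in EC by 2.28 log2 units and lower in EC than in SMF by -1.78 (limma adjusted p = 0.00599 and 0.00543), so like Ankrd1 it was lowest in EC. Against fibres, 12 of the 16 were higher in SC, and 12 were higher in EC and 1 lower (medians 1.78 and 1.79). Of all tested genes, 56.5% were called higher in SC than in SMF, and 55.5% were called higher and 10.8% lower in EC than in SMF, with medians of 0.93 and 0.85. Upper-quartile scaling gave 6 higher and 1 lower for SC and 8 higher and 2 lower for EC. Crim1 in SC (0.52 log2 units) turned to -0.38, -0.97 and -0.35 with the scalings, and was not called without SC replicate 1 or without any single SMF library.

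**Figure D5:**
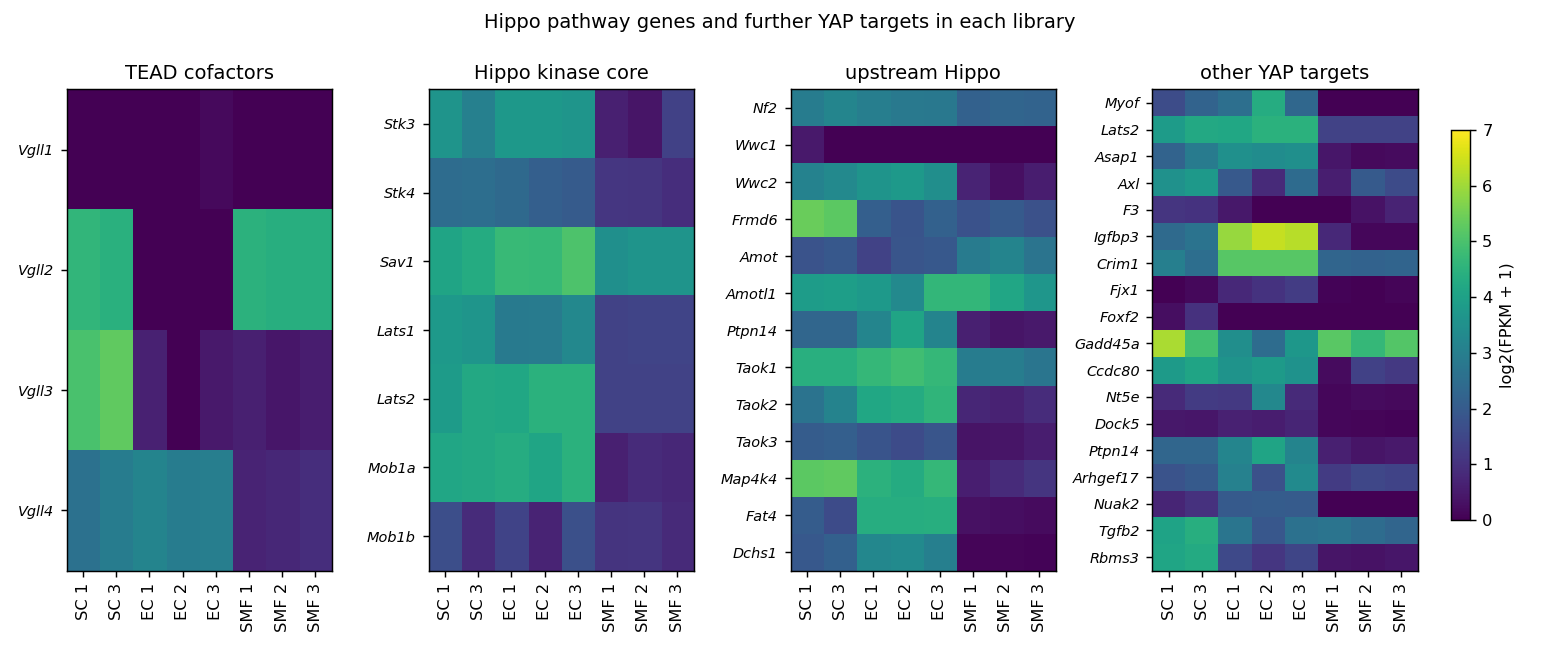
Level as log2(FPKM + 1) (colour, 0 to 7) of the TEAD cofactors, the Hippo kinase core, upstream Hippo genes and other YAP targets (rows) in the 2 SC, 3 EC and 3 SMF libraries (columns). Vgll3 and Frmd6 are brightest in SC, Igfbp3, Fat4 and Crim1 in EC, and Vgll2 is at 0 in the EC columns.

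The genes whose pattern over the 8 libraries was most like that of a coactivator or TEAD gene were named by Pearson's r of log2(FPKM + 1) among 3876 abundant genes, as a description, since all of them share the same 3 populations and libraries. For Yap1 they were Smc1a, Gas6 and Ptpn12 (r = 0.997, 0.996 and 0.995), and for Wwtr1 Abracl, Galnt18 and Cyp2d22 (r = 0.998 each). For Tead1 they were Trib1, Nfil3 and Tubb6 (r = 0.978, 0.976 and 0.975), and for Tead3 Loxl1, Rcan2 and Odc1 (r = 0.980, 0.977 and 0.977). Tead2 was followed most closely by Hist1h1a, Phrf1 and Cox6a1 (r = 0.996, 0.996 and 0.995) and Tead4 by Meox1, Hoxb7 and B3gnt3 (r = 0.998, 0.997 and 0.996).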

How the data were processed

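Total RNA (10 ng) was made into stranded, random-primed libraries from which ribosomal sequences were removed, and read as pairs of 50 bp, per the labels' protocols. FastQC, Trimmomatic, HISAT2, StringTie and bedtools were used on build mm10, per the submitters' processing notes. Not given in the sources used here are their versions and settings and whether strand was used in counting, so reads of overlapping antisense genes cannot be separated.

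The deposited gene table holds FPKM for 36048 genes, per the file headers. The authors' second deposited table holds TPM for 46435 loci and a specificity score of the authors, which was not used. The deposited transcript table holds FPKM and coverage (signal) for 89871 transcripts, and 25348 of the transcript numbers up to 115219 are not among them. A check over 6865 genes with several listed transcripts compared gene FPKM with sums of transcript FPKM. The length-weighted sum was in a constant ratio to gene FPKM (coefficient of variation up to 1%) in 57.55% of them, and the plain sum in 11.84%. Among the 10 genes the ratio was constant for Yap1, Wwtr1, Ctgf and Amotl2 but not for Tead1 (4.54%). In genes where it was constant, gene FPKM may be an average over transcripts weighted by length, which the sources used here do not state.

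Genes with at least 1 FPKM in at least 2 libraries (16700) were fitted with limma 3.58.1 (R 4.3.3) on log2(FPKM + 1) with its trend option, from the 8 libraries together, with 1 mean per population and two-sided tests. Calls are Benjamini-Hochberg adjusted p under 0.05. Fold differences are ratios of mean FPKM, and log2 differences understate low genes. The tables used hold no counts. Fragment numbers were estimated from deposited coverage, whose ratio to FPKM gave 278 to 368 Mb aligned for each SC or EC library and 525 to 581 Mb for each SMF library. The calculation was tested on simulated data in which a small part of the genes differed, and only in SC. That setting lacks the shift of most genes against fibres seen here, so it does not check those comparisons.

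Alternatives were a pseudocount of 0.1, no filter, median-of-ratios and upper-quartile scaling, scaling that leaves out each population's 50 most abundant genes, the TPM table, only the populations compared, a replicate block and leaving out each library. The sum of listed transcripts and the early-response list were added after seeing the data. The 10 genes and all lists were chosen with earlier results of these data known. Named list genes are up to 4 of highest mean called in the main direction of a list and up to 2 in the other, of which some are given. Vgll1 and Mob1b were singled out once their values were known. Coding and untranslated lengths of transcripts are from GENCODE vM39, and promoter sequences from RefSeq (GRCm38.p6).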

Additional observations from a re-analysis of the deposited data

How the results depend on the processing

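Over 496 combinations of gene, comparison and setting for the 10 genes, 453 kept their direction and their side of the threshold, 10 lost the call, 10 gained one and 23 changed sign, of which 4 were called in the main analysis and 19 were not. Some settings cannot change a difference, namely leaving out a library of the population outside the comparison or fitting only the populations compared. There only the spread, the genes tested and the adjusted p can move. Such settings do not check the direction, here or in the counts of settings given above. For the counts, 4 genes higher in SC than in EC became 2 to 5 when single libraries were left out, with 2 without SC replicate 3 and 5 without EC replicate 3. The 2 lower became 1 with the TPM table, with only those populations and with the sum of listed transcripts, and 1 to 2 with a library left out. The 8 higher in SC than in SMF became 5 with upper-quartile scaling, and the 0 lower (limma, also 0 at an unadjusted p under 0.05) became 1 with median-of-ratios scaling, 2 with upper-quartile scaling and 1 without the most abundant genes. The 1 lower in EC than in SMF became 2 with median-of-ratios scaling, 3 with upper-quartile scaling, and 2 each without the most abundant genes, with TPM and with the sum of listed transcripts. On TPM the Tead1 share was 74.4% in SC, 41.1% in EC and 92.1% in SMF, and log2 of Yap1 over Wwtr1 was -0.999 in SC, -1.73 in EC and 0.94 in SMF.

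Changes of sign, in log2 units, were as follows. For SC minus EC, Yap1 gave 0.067 with TPM, 0.026 with the sum of listed transcripts and -0.072 to 0.016 with a library left out. Tead2 gave -0.059 with median-of-ratios scaling, -0.13 without the most abundant genes and -0.039 to 0.27 with a library left out. Amotl2 gave 0.23 with TPM, 0.18 with the sum of listed transcripts and -0.31 to 0.28 with a library left out. For SC minus SMF, Yap1 gave -0.28 with upper-quartile scaling, and Tead1 gave -0.22 with that scaling and -0.33 with the sum of listed transcripts. Tead4 gave -0.35 with median-of-ratios scaling, -0.63 with upper-quartile scaling, -0.32 without the most abundant genes, -0.011 with TPM and -0.068 to 0.14 with a library left out. Ankrd1 gave 0.093 with TPM and -0.23 to 0.21 with a library left out. For EC minus SMF, Yap1 gave -0.21 with upper-quartile scaling, and Tead1 -0.28 to 0.13 with a library left out. The scalings move all genes of a comparison together by construction, and otherwise the cause was not tested.

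Of 7 pairs of libraries with a shared number, 0 had a correlation of deviations over 0.1, the highest being 0.09 for SC and EC replicate 1. With only 2 SC libraries their deviations mirror each other, so the SC pairs are not separate checks. This cannot decide whether libraries with the same number are paired. With a replicate block the counts were 4 higher and 2 lower for SC minus EC, 8 and 0 for SC minus SMF and 7 and 1 for EC minus SMF. Limits lie in 2 SC libraries, in the few reads of Tead2, in the unknown reads of Tead3 and Tead4 and in transcript estimates that were not tested.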

Other observations

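Among the further YAP targets, a few stood apart within the EC libraries. Myof, a membrane repair protein, had 4.90, 19.0 and 4.10 FPKM in EC replicates 1, 2 and 3, and Nt5e, the ectoenzyme CD73, had 1.25, 8.54 and 0.772 FPKM. Ptpn14 had 8.02, 15.9 and 7.99 FPKM in the same order. All 3 were highest in EC replicate 2. Others of the same list were lowest in that library, among them Axl, with 2.90, 0.766 and 4.46 FPKM in EC replicates 1, 2 and 3, and Arhgef17, with 7.50, 2.31 and 9.24 FPKM, as well as Gadd45a, Tgfb2 and Rbms3. These genes were chosen after their values were seen and no test was run on them.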
